A study of Mus musculus with 10 samples.

Results

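The genes described here are 10 genes of intestinal goblet cells that make, fold or control mucus: Muc2, Fcgbp, Clca1, Zg16, Tff3, Retnlb, Spink4, Agr2, Atoh1 and Spdef. They are a list of gene names, drawn up with earlier results of these data known, and all 10 are among the 47069 genes of the table, of which 26392 had at least 1 count in a library. All 10 also passed the filter on low counts and are among the 16179 genes tested.

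Goblet cells are secretory cells of the intestinal epithelium that store gel-forming mucin in granules and release it onto the surface as mucus. Muc2 forms the polymer of that gel, and proteins such as Fcgbp, Clca1 and Zg16 are released with it and become part of the layer. The transcription factor Atoh1 commits crypt progenitors to the secretory lineages, and Spdef acts after it in goblet cell maturation. Mucus is thicker and goblet cells are more frequent in the colon than in the small intestine.

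RNA-seq was performed on 10 libraries of mouse intestinal organoids, 2 in each of 5 groups, to compare organoids given the carcinogen DMBA, tamoxifen (TAM), both or neither. Per the labels all organoids were C57BL/6, grown in Matrigel for a 50-day culture period in NER medium, which contains Noggin, EGF and R-spondin-1. The groups were saline (control), DMBA, which the label calls long, "Dosage-sensitive TAM" in a short and a long set (TAM short and TAM long), and DMBA+TAM. Per the study's methods the mice carried Lgr5-EGFP-CreERT2, which makes a tamoxifen-activated Cre in Lgr5+ stem cells, together with floxed Ppp2r1a, and all groups would share that genotype. The labels leave the words short and long without an explanation and do not give the age and sex of the mice, or whether replicates came from separate mice or cultures, so p-values measure only the spread between these libraries. The libraries are named NS (control), NL (DMBA), DSS_S (TAM short), DSS_L (TAM long) and Lgr5 (DMBA+TAM). The labels do not explain these letters, so whether DSS names a treatment beyond TAM, and whether S and L, or short and long, name the gut segment the organoids came from, is not known here. Ppp2r1a, the gene to be deleted, had 123 and 129 normalized CPM in control, 131 and 147 in TAM short, 169 and 157 in TAM long and 129 and 133 in DMBA+TAM. No TAM library was below both control libraries by this measure, which sums reads over all exons and so does not test the deletion itself.

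Total counts ranged from 8828247 to 10923673 in 8 libraries, and were 1592366 and 1915270 in the DMBA+TAM libraries. Normalized CPM, used below, are read counts divided by the library total after scaling with edgeR's TMM method and given on the usual CPM scale. A level of 3 counts corresponded to 1.58 and 1.32 normalized CPM in the DMBA+TAM libraries and to 0.259 to 0.379 in the others. The DMBA+TAM libraries lacked the markers that define an intestinal organoid: the summed level of 10 general epithelial markers was 33.3 and 22.9 normalized CPM there against 13565 to 23097 in the other 8 libraries, and Epcam had 3 and 3 counts. In the same 2 libraries the summed level of 10 fibroblast markers was 32747 and 33571 normalized CPM against 689 to 2420.5 elsewhere.

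Markers of gut segment separated the other 8 libraries as well. The summed level of 10 small intestine markers was 13937 to 16761 normalized CPM in the control and TAM short libraries and 18.6 to 292 in the DMBA and TAM long libraries. The summed level of 9 colon markers was 514 to 652 normalized CPM in the control and TAM short libraries and 3706 to 12995 in the DMBA and TAM long libraries. Car1, a carbonic anhydrase of the colon, had 0 counts in both control libraries, 68145 and 10194 in DMBA, 1 and 0 in TAM short and 129033 and 28933 in TAM long. Apoa4, an apolipoprotein of small intestinal enterocytes, had 0 counts in all DMBA and TAM long libraries, beside 14397 and 20534 in control and 2394 and 1595 in TAM short. Control and TAM short, although alike in the sum, differed in single markers of the small intestine. Fabp6, the ileal bile acid binding protein, had 1.53 normalized CPM in control and 8406 in TAM short, Lct, the enterocyte lactase, had 1417 and 1.97, and Fabp1, a fatty acid binding protein, had 2173 and 3.67. Of the 10 small intestine markers, 1 was called higher and 6 lower in TAM short against control, against 6.52% and 7.80% of all genes tested. Treatment and segment profile moved together in these libraries and cannot be told apart in the comparisons of DMBA, TAM long or TAM short with control, nor in that of TAM long with TAM short. The sums split the libraries as the letters S and L in their names do, and whether the short and long sets differ in tissue of origin was not tested.

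**Figure D1:**
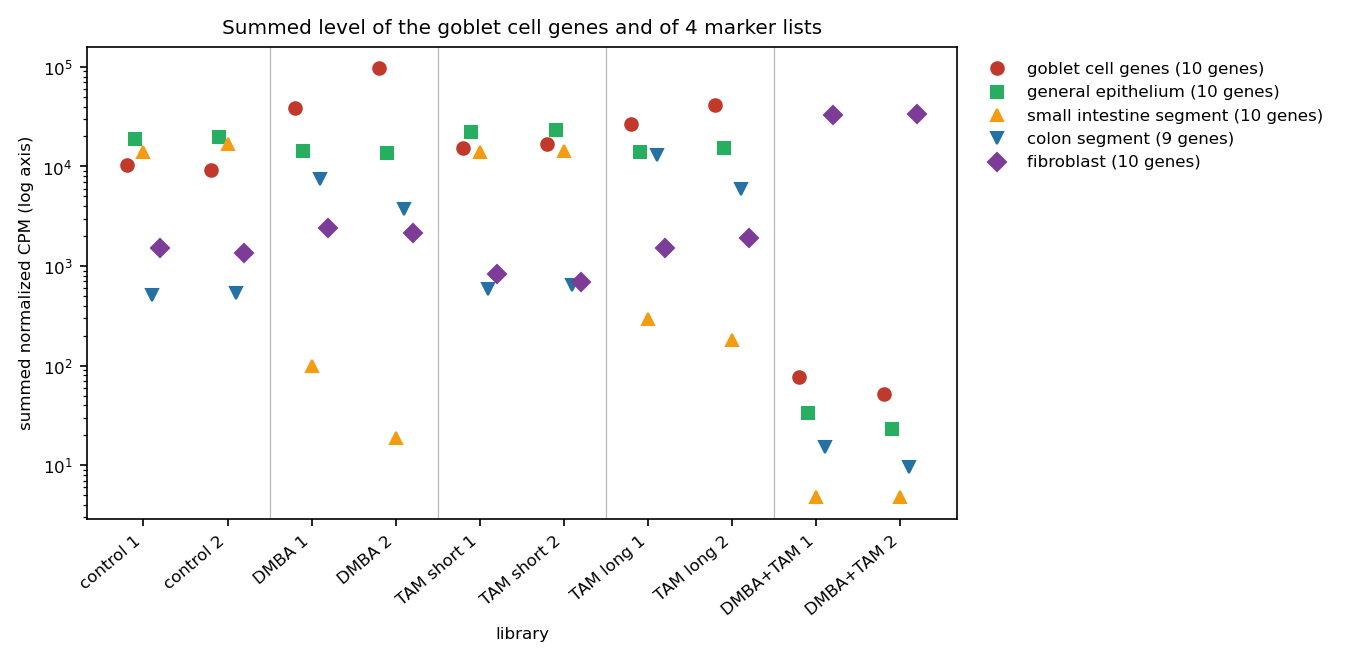
Summed normalized CPM (log axis) of the 10 goblet cell genes and of 4 marker lists in each of the 10 libraries, with 1 symbol per list and library. Small intestine markers are high in control and TAM short, colon markers in DMBA and TAM long, and fibroblast markers in DMBA+TAM, where the goblet cell genes sum to 77.1 and 51.5.

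The goblet cell genes as a group were highest in DMBA and TAM long and nearly absent from DMBA+TAM. They took 0.879% and 0.771% of all counts in control, 4.34% and 9.38% in DMBA, 1.39% and 1.52% in TAM short and 2.85% and 4.32% in TAM long, with exact 95% binomial intervals of at most 0.0189 percentage points to either side. In DMBA+TAM they took 0.00917% (exact 95% interval 0.00774% to 0.0108%) and 0.00611% (0.00505% to 0.00732%), from 146 and 117 counts. These intervals cover counting error only. A lower level in a bulk library may come from fewer goblet cells or from less RNA per cell, and these cannot be told apart.

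Against control, 8 of the 10 genes were called higher in DMBA and 0 lower by the quasi-likelihood test of edgeR, with p-values adjusted over the 16179 genes by the Benjamini-Hochberg method. Of all genes tested in that comparison, 24.5% were called higher and 23.3% lower. Without DMBA replicate 2, 6 were called higher (Fcgbp and Spink4 were lost) and 1 lower, Tff3, and without either control replicate 6 were called higher. DESeq2 and limma on FPKM called 7 higher. In TAM long, 6 of the 10 were higher and 0 lower, against 23.2% and 22.8% of all genes. With no filter on low counts, and in a fit of these 2 groups alone, 7 were higher in TAM long (Zg16 added) and 1 lower (Spink4). In TAM short, 3 of the 10 were higher and 0 lower, against 6.52% and 7.80% of all genes. With no filter on low counts, and in a fit of these 2 groups alone, the 3 calls became 8 (Clca1, Fcgbp, Spink4, Tff3 and Zg16 added). In DMBA+TAM, 0 were higher and 10 lower, against 29.0% and 35.3% of all genes. Over the 10 genes the log2 fold change had a median of 1.97 in DMBA and 1.49 in TAM long, where all genes tested had medians of 0.07 and 0.05. In TAM short the medians were 0.65 for the 10 genes and -0.04 for all genes, and in DMBA+TAM they were -7.47 and -0.17. The 4 comparisons share the 2 control libraries, so they are not independent of each other. At an unadjusted p under 0.05 the counts of the 10 genes were the same in all 4 comparisons, where 8830 (DMBA), 8608 (TAM long), 4659 (TAM short) and 10909 (DMBA+TAM) of the 16179 genes passed, and DESeq2 also called 0 genes in the direction given here as 0.

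Scaling by library size alone moved the median over all genes tested against control to 0.38 (DMBA), 0.37 (TAM long), 0.04 (TAM short) and 0.31 (DMBA+TAM). The number of genes called higher then changed from 3961 of 7735 to 5587 of 7844 in DMBA, from 3760 of 7444 to 5538 of 7686 in TAM long, from 1055 of 2317 to 1279 of 2184 in TAM short and from 4687 of 10396 to 6254 of 10009 in DMBA+TAM. All calls on the 10 genes named above were also made with that scaling, which added Zg16 as higher in TAM long.

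**Figure D2:**
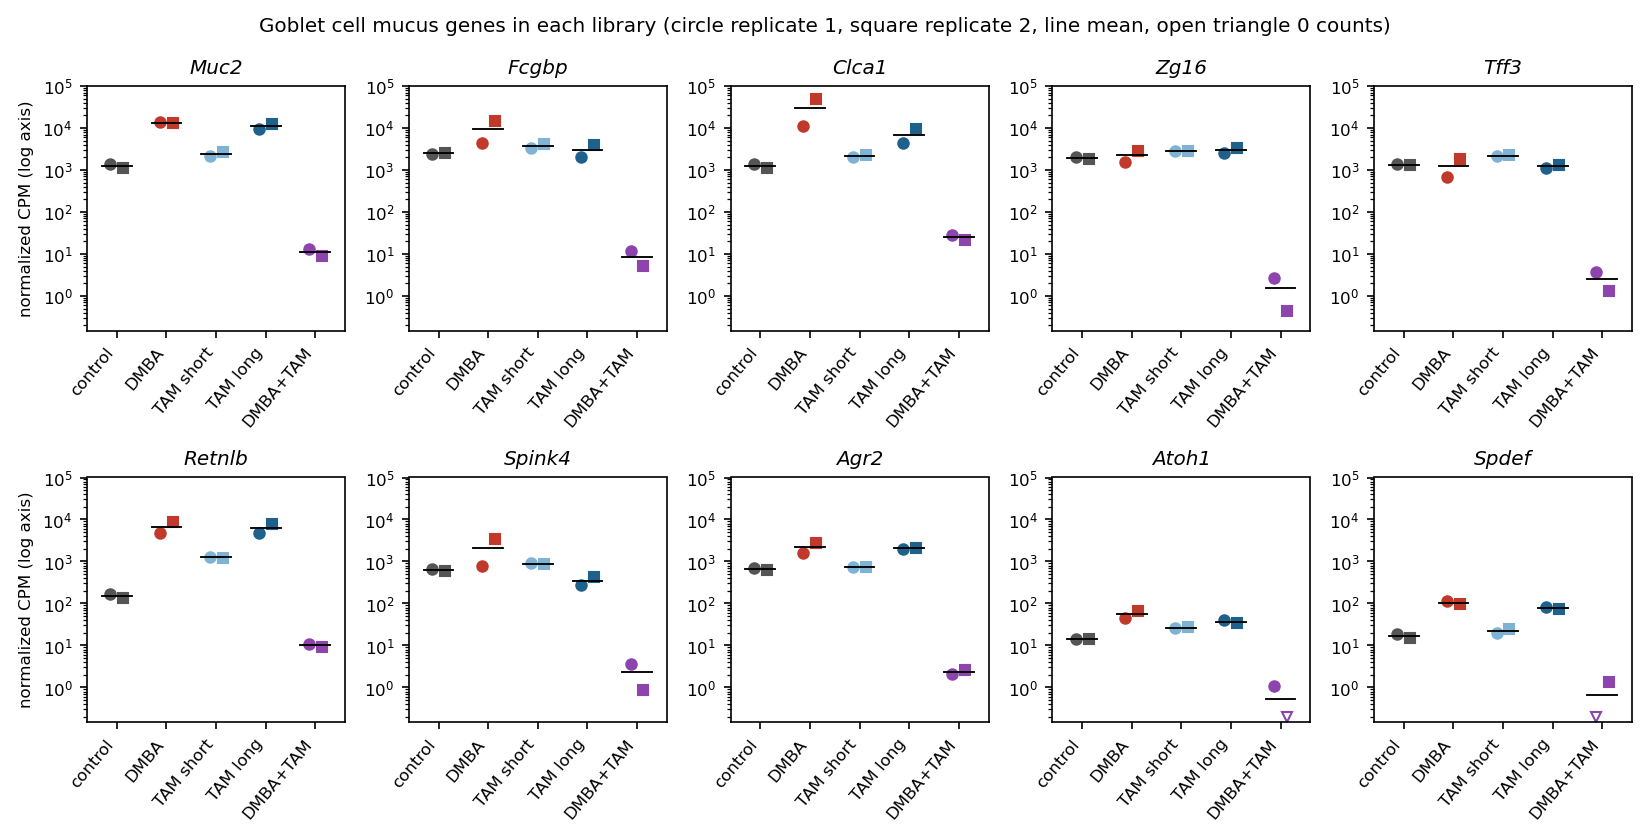
Normalized CPM (log axis) of each of the 10 genes in the 5 groups, with replicate 1 as a circle, replicate 2 as a square, the mean as a line and libraries with 0 counts as open triangles at the axis floor. Every gene is lowest in the DMBA+TAM libraries, and for Clca1, Fcgbp, Spink4 and Tff3 the 2 DMBA libraries lie more than 2-fold apart.

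The gel of the mucus layer is described first. Muc2, the gel-forming mucin, had 1374 and 1112 normalized CPM in control, 13699 and 13123 in DMBA, 2180.1 and 2745 in TAM short, 9589 and 12509 in TAM long and 13.2 and 8.81 in DMBA+TAM. The DMBA and TAM long libraries lay above all others and no library of a group overlapped with control. Muc2 rose 10.8-fold in DMBA (log2 fold change 3.43, SE 0.23, edgeR adjusted p = 3.75e-06), 8.89-fold in TAM long (3.15, SE 0.23, edgeR adjusted p = 5.76e-06) and 1.98-fold in TAM short (0.99, SE 0.21, edgeR adjusted p = 0.0141). The call in TAM short was lost without either control replicate or without TAM short replicate 2. Muc2 (ENSMUSG00000025515) lies on the plus strand at chr7:141690340-141754693 of GRCm38 in GENCODE M21, whose coordinates are also used for the genes that follow.

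Fcgbp, a large protein that binds to Muc2 in the mucus gel, had 2384 and 2580.2 normalized CPM in control, 4497 and 14934 in DMBA, 3406 and 4127 in TAM short, 2046 and 3987 in TAM long and 11.6 and 5.29 in DMBA+TAM. The TAM long libraries lay on either side of the control libraries, and DMBA replicate 2 lay above every other library. Fcgbp rose 3.91-fold in DMBA (log2 fold change 1.97, SE 0.51, edgeR adjusted p = 0.0103), but without DMBA replicate 2 the log2 fold change was 0.85 and the call was lost. Without either control replicate this call was lost as well. Its log2 fold changes in TAM short (0.60, SE 0.49) and TAM long (0.28, SE 0.49) did not pass the test. Fcgbp (ENSMUSG00000047730) lies on the plus strand at chr7:28071236-28120862.

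Clca1, a secreted metalloprotease of the mucus layer, had 1401 and 1115 normalized CPM in control, 11186 and 48657 in DMBA, 1989 and 2247 in TAM short, 4442 and 9499 in TAM long and 28.0 and 21.6 in DMBA+TAM. DMBA replicate 2 held 433215 Clca1 counts. The gene rose 23.8-fold in DMBA (log2 fold change 4.57, SE 0.64, edgeR adjusted p = 3.40e-04), with a log2 fold change of 3.14 without DMBA replicate 2 and 5.25 without DMBA replicate 1. It rose 5.54-fold in TAM long (2.47, SE 0.59, edgeR adjusted p = 0.00694), a call that was lost without control replicate 2 and without TAM long replicate 2, where the log2 fold change was 1.81. In TAM short its log2 fold change of 0.75 (SE 0.56) did not pass the test, although the libraries of the 2 groups did not overlap. It passed with no filter on low counts and in a fit of these 2 groups alone, as did Fcgbp, Zg16, Tff3 and Spink4. Clca1 (ENSMUSG00000028255) lies on the minus strand at chr3:145003817-145032776.

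Zg16, a lectin-like protein of goblet cell granules that binds Gram-positive bacteria, had 2090.5 and 1802 normalized CPM in control, 1568 and 2869 in DMBA, 2757 and 2772 in TAM short, 2490.3 and 3390.0 in TAM long and 2.64 and 0.441 in DMBA+TAM. The control libraries lay between the 2 DMBA libraries. Its log2 fold change of 0.19 in DMBA (SE 0.30) did not pass the test and was -0.32 without DMBA replicate 2. The log2 fold changes of 0.51 in TAM short and 0.60 in TAM long (SE 0.30 in both) did not pass either. Zg16 (ENSMUSG00000049350) lies on the minus strand at chr7:127050156-127087328.

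The bases before the start of 2 of these genes are shown because both genes were called higher in DMBA. Sequences are from RefSeq on GRCm38.p6, and the table of promoter windows used here gave 5 of the 10 genes (Muc2, Fcgbp, Agr2, Atoh1 and Spdef). The 250 bases before each start were searched on both strands for TATAAA (the TATA box core), CAGNTG (an E-box, the kind of site that factors like Atoh1 bind), TGTTTAC (a forkhead motif) and TTTATNG (a motif of Cdx and posterior Hox factors). Of 32851 windows of the same length, 12.4% held TATAAA, 44.8% CAGNTG, 3.2% TGTTTAC and 9.8% TTTATNG. The last 119 bases before the start are given 5′ to 3′ on the gene's strand, with matches in capitals:
Muc2, chr7:141690221-141690339, plus strand: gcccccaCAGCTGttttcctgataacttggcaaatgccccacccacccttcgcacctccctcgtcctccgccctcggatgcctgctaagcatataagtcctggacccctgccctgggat
Fcgbp, chr7:28071117-28071235, plus strand: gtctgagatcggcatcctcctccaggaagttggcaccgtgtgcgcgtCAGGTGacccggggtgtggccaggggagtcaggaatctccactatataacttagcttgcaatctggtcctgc
Muc2 had 1 CAGNTG match in the 250 bases, shown here, and a TATAAA match farther upstream. Fcgbp had 3 CAGNTG matches, of which 1 is shown. A match describes these letters only, and at the E-box share above it is common among all genes.

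Among the secreted peptides, Retnlb changed most of the 10 genes in DMBA, TAM short and TAM long. Retnlb, the resistin-like molecule beta that goblet cells release against bacteria and worms, had 172 and 134 normalized CPM in control, 4718 and 8719 in DMBA, 1285 and 1222 in TAM short, 4738 and 7973 in TAM long and 11.1 and 9.25 in DMBA+TAM. No group overlapped with control. It rose 44.0-fold in DMBA (log2 fold change 5.46, SE 0.37, edgeR adjusted p = 3.85e-06), 41.6-fold in TAM long (5.38, SE 0.37, edgeR adjusted p = 4.20e-06) and 8.21-fold in TAM short (3.04, SE 0.33, edgeR adjusted p = 3.88e-04). These 3 calls were made in every alternative, those leaving out a library included. Retnlb (ENSMUSG00000022650) lies on the plus strand at chr16:48816856-48818892.

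Tff3, the trefoil peptide that goblet cells secrete with mucin and that aids repair of the epithelium, had 1417 and 1284 normalized CPM in control, 692 and 1841 in DMBA, 2131 and 2223 in TAM short, 1144 and 1290.2 in TAM long and 3.70 and 1.32 in DMBA+TAM. The control libraries lay between the 2 DMBA libraries, of which replicate 1 was the lowest outside DMBA+TAM. Its log2 fold changes were -0.09 in DMBA (SE 0.36, edgeR adjusted p = 0.853) and -0.15 in TAM long (SE 0.36, edgeR adjusted p = 0.760), and with scaling by library size alone they were 0.17 and 0.17. Without DMBA replicate 2 the log2 fold change in DMBA was -0.97, which was called lower (edgeR adjusted p = 0.00252), and without DMBA replicate 1 it was 0.42, which was not called. In TAM short the log2 fold change was 0.69 (SE 0.36), which did not pass the test. Tff3 (ENSMUSG00000024029) lies on the minus strand at chr17:31125306-31129646.

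Spink4, a small peptide with a Kazal-type protease inhibitor domain, had 654 and 600 normalized CPM in control, 765 and 3358 in DMBA, 928 and 857 in TAM short, 272 and 431 in TAM long and 3.70 and 0.881 in DMBA+TAM. It was the gene for which DMBA and TAM long differed most, with DMBA above and TAM long below control. Its rise in DMBA (3.29-fold, log2 fold change 1.72, SE 0.54, edgeR adjusted p = 0.0260) rested on replicate 2, without which the log2 fold change was 0.28 and the call was lost. That call was also lost without either control replicate, with DESeq2, with limma on log2(FPKM + 1) or log2(FPKM + 0.1) and in a fit of these 2 groups alone. In TAM long its log2 fold change of -0.83 (SE 0.53) did not pass the test. Spink4 (ENSMUSG00000028415) lies on the plus strand at chr4:40920052-40931395.

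Agr2, a protein disulfide isomerase of the endoplasmic reticulum needed for Muc2 production, had 702 and 630 normalized CPM in control, 1562 and 2795 in DMBA, 756 and 720 in TAM short, 1985 and 2112 in TAM long and 2.11 and 2.64 in DMBA+TAM. The DMBA and TAM long libraries overlapped with each other and lay above all others. Agr2 rose 3.27-fold in DMBA (log2 fold change 1.71, SE 0.23, edgeR adjusted p = 2.92e-04) and 3.08-fold in TAM long (1.62, SE 0.23, edgeR adjusted p = 4.18e-04). In TAM short its log2 fold change of 0.15 (SE 0.23) did not pass the test. Agr2 (ENSMUSG00000020581) lies on the plus strand at chr12:35992907-36004087.

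Atoh1 and Spdef, the transcription factors, were at far lower levels than the secreted proteins. Atoh1 had 14.6 and 14.2 normalized CPM in control, 46.0 and 66.9 in DMBA, 25.5 and 27.004 in TAM short, 39.4 and 34.7 in TAM long and 1.06 and 0 in DMBA+TAM. Its groups did not overlap, in the order DMBA, TAM long, TAM short, control and DMBA+TAM. Atoh1 rose 3.91-fold in DMBA (log2 fold change 1.97, SE 0.23, edgeR adjusted p = 1.19e-04), 2.57-fold in TAM long (1.36, SE 0.23, edgeR adjusted p = 0.00112) and 1.82-fold in TAM short (0.87, SE 0.24, edgeR adjusted p = 0.0370). The call in TAM short was lost when any 1 of the 4 libraries of that comparison was left out, with limma on log2(FPKM + 0.1) and with thinned counts. Atoh1 (ENSMUSG00000073043) lies on the plus strand at chr6:64729125-64731245 and has a single exon.

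Spdef had 18.7 and 14.9 normalized CPM in control, 112 and 95.4 in DMBA, 19.7 and 24.7 in TAM short, 83.0 and 73.7 in TAM long and 0 and 1.32 in DMBA+TAM. The DMBA and TAM long libraries were at 73.7 normalized CPM or more and the control and TAM short libraries at 24.7 or less. Spdef rose 6.18-fold in DMBA (log2 fold change 2.63, SE 0.22, edgeR adjusted p = 1.43e-05) and 4.66-fold in TAM long (2.22, SE 0.22, edgeR adjusted p = 3.92e-05). With limma on log2(FPKM + 0.1) the TAM long calls on Spdef and Atoh1 were lost. In TAM short the log2 fold change of Spdef was 0.40 (SE 0.22), which did not pass the test. Spdef (ENSMUSG00000024215) lies on the minus strand at chr17:27714352-27728955.

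The same stretch before the RefSeq start is shown for Agr2, Atoh1 and Spdef, since these genes were called higher in both DMBA and TAM long. The RefSeq starts of Agr2 and Spdef lie inside the spans that GENCODE M21 gives, so these 2 windows include the first bases of the GENCODE genes:
Agr2, chr12:35992806-35992924, plus strand: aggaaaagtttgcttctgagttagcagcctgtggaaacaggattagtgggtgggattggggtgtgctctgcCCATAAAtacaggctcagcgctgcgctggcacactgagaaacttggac
Atoh1, chr6:64729006-64729124, plus strand: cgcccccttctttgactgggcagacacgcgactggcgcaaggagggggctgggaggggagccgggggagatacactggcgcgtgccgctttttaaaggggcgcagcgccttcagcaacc
Spdef, chr17:27728952-27729070, minus strand: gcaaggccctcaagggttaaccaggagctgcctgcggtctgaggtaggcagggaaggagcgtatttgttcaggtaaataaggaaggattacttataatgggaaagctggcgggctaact
The capitals in Agr2 are a TTTATNG match on the opposite strand. Atoh1 and Spdef held 0 matches to the 4 motifs in the 250 bases, and no motif was held by all of these genes.

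**Figure D3:**
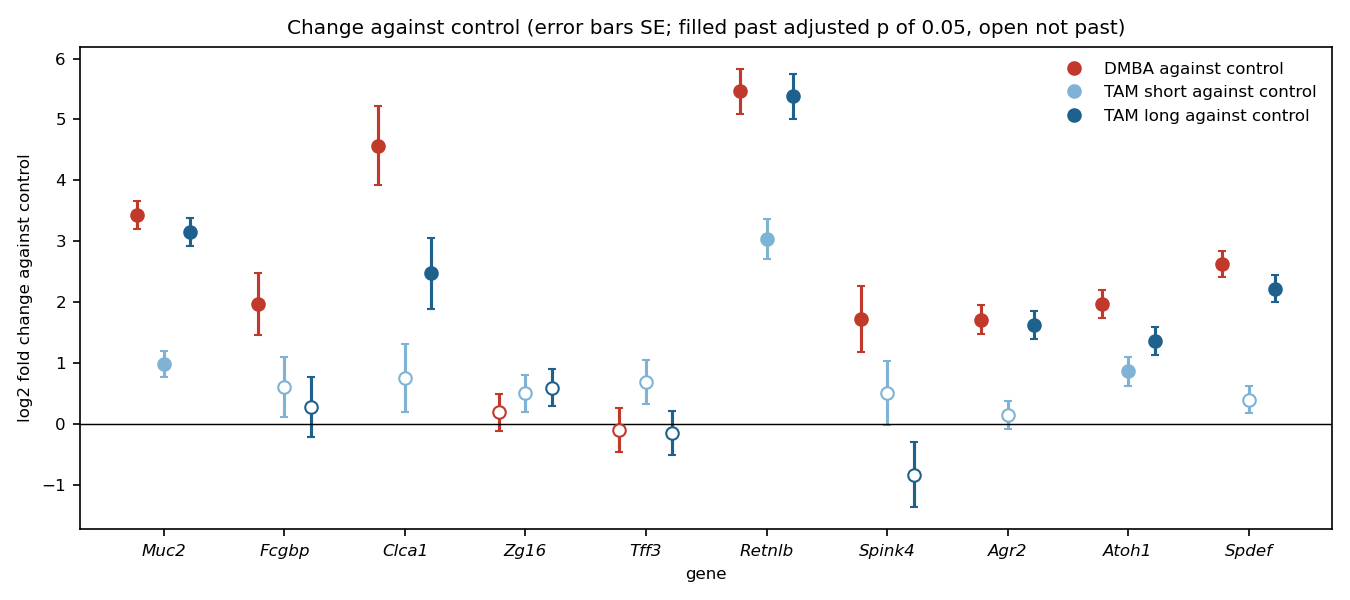
Log2 fold change against control with its SE for each gene in DMBA, TAM short and TAM long, from edgeR, filled where the adjusted p was under 0.05 and open otherwise. Muc2, Retnlb and Atoh1 are filled in all 3 groups, whereas Zg16 and Tff3 are open in all 3.

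The 2 DMBA libraries differed from each other more than the replicates of control, TAM short and TAM long. The chi-square per degree of freedom of their counts over genes was 67.3, against 5.65 to 24.3 in these 3 groups of like depth. The 10 goblet cell genes enter this measure too, and genes with many counts weigh most in it. The ratio of DMBA replicate 2 to replicate 1 was 4.39 for Spink4, 4.35 for Clca1, 3.32 for Fcgbp and 2.66 for Tff3. It was 1.85 for Retnlb, 1.83 for Zg16, 1.79 for Agr2 and 1.46 for Atoh1. Muc2 and Spdef did not follow, with ratios of 0.958 and 0.849. Of the 13958 genes with at least 1 normalized CPM in both DMBA libraries, 2.97% had a ratio above 2 and 3.32% a ratio under 0.5, while 4 of the 10 goblet cell genes were above 2. In the shallower DMBA+TAM libraries 4.67% of genes were above 2 and 3.06% under 0.5. In control and TAM short, 0 of the 10 had a ratio above 2, and in TAM long it was Clca1 alone (2.14). Ang4, an antimicrobial ribonuclease of Paneth and goblet cells, had 2081 normalized CPM in DMBA replicate 1 and 7751 in replicate 2. It made up nearly all of the summed level of the 6 Paneth cell markers (2191 and 7954), in which Defa17 had 0 and 0 and Mmp7 went the other way (4.64 and 0.562), both named after their values were seen. Hoxb13, a gene of the distal colon chosen here after its values were seen, had 29 and 1660 counts in the same libraries. Both genes were also higher in replicate 2 of TAM long, where Ang4 had 254 and 874 normalized CPM and Hoxb13 had 13 and 118 counts. The summed level of the 9 colon markers, Hoxb13 included, went the other way. It was 7500 and 3706 normalized CPM in DMBA replicates 1 and 2, and 12995 and 5968 in those of TAM long. The deviations of same-numbered DMBA and TAM long libraries from their group means had a correlation of 0.26 across genes, the highest of the 10 pairs of groups. The part of these differences in the goblet cell values was not tested.

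**Figure D4:**
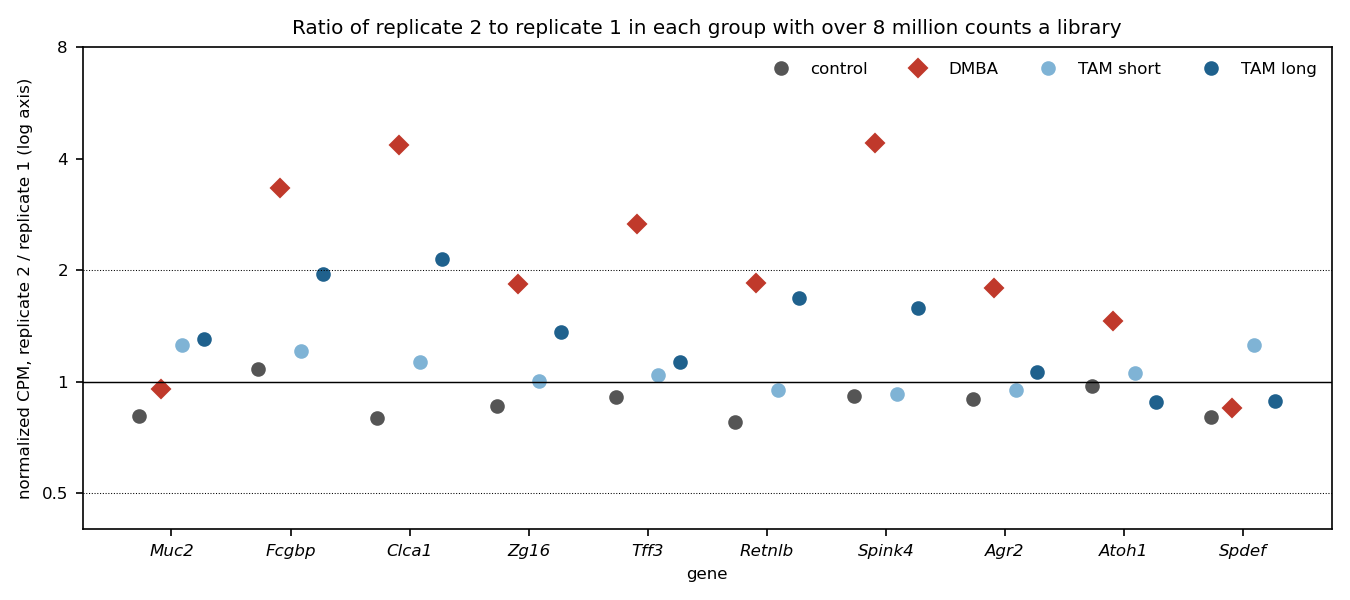
Ratio of normalized CPM in replicate 2 to replicate 1 (log axis) for each gene in control, DMBA, TAM short and TAM long, with dotted lines at 0.5 and 2. The DMBA ratios of Spink4, Clca1, Fcgbp and Tff3 lie above 2, and those of Muc2 and Spdef lie close to 1.

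The make-up of the mucus transcripts therefore differed between the DMBA libraries as well as between groups. Among the counts of the 10 genes, Muc2 took 35.3% and Clca1 28.8% in DMBA replicate 1, but 13.6% and 50.4% in replicate 2. In TAM long Muc2 took 35.7% and 30.3% and Clca1 16.6% and 23.0%. In control the counts were spread over Fcgbp (23.3% and 27.8%), Zg16 (20.4% and 19.4%), Tff3 (13.9% and 13.8%), Muc2 (13.4% and 11.97%) and Clca1 (13.7% and 12.01%), and in TAM short Fcgbp took 22.0% and 24.3% and Zg16 17.8% and 16.3%. Retnlb took 1.68% and 1.44% in control, 12.1% and 9.04% in DMBA, 8.30% and 7.21% in TAM short and 17.7% and 19.3% in TAM long. The exact 95% intervals of these shares were at most 0.317 points to either side. In DMBA+TAM, Clca1 took 36.3% (28.5% to 44.7%) and 41.9% (32.8% to 51.4%) of the few counts left.

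**Figure D5:**
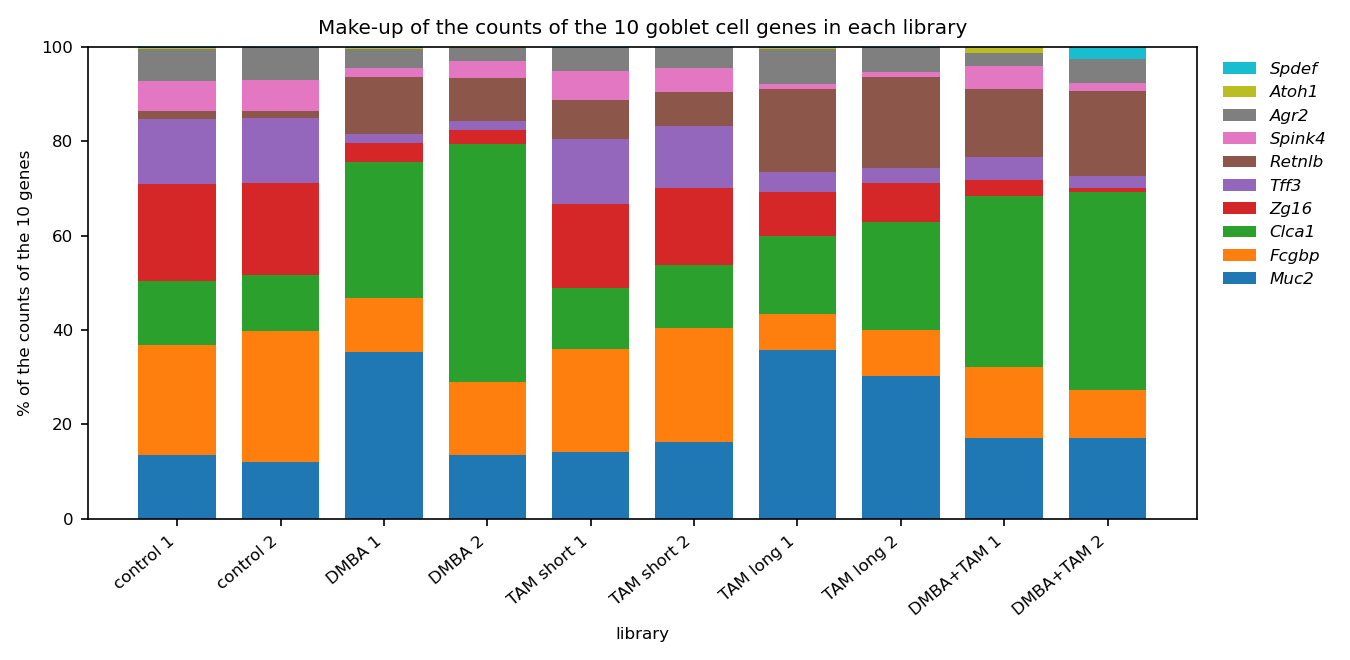
Share (%) of each of the 10 genes in their summed counts, 1 bar per library. Control and TAM short have similar bars led by Fcgbp and Zg16, DMBA replicate 1 and TAM long are led by Muc2, and DMBA replicate 2 by Clca1 with 50.4%.

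Between genes, levels can be compared only per length, here as normalized CPM per kb of GENCODE M21 exons. On this scale Tff3 was the highest of the 10 in control, with 2740 ± 191 (SD, n = 2), followed by Zg16 (1548 ± 162) and Spink4 (1314 ± 81.4). In DMBA and TAM long Retnlb had the highest mean, with 9653 ± 4065 and 9132 ± 3287 normalized CPM per kb, although in DMBA replicate 2 Clca1 (12882) exceeded Retnlb (12527). By its mean, Muc2 ranked 8 of the 10 in control (174 ± 26.0) and 5 of the 10 in DMBA (1882 ± 57.1). Its place differed between the DMBA libraries. With 1922 in replicate 1 it lay above Spink4 (1603), Tff3 (1403), Zg16 (1248) and Agr2 (1210). With 1841 in replicate 2 it lay below the same genes (7040, 3733, 2282 and 2165). Atoh1 and Spdef were the 2 lowest in every group. The order depends on the length used: for Muc2 the exons in GENCODE M21 span 7127 bases, whereas the deposited FPKM imply 1284 bases. On the FPKM scale Clca1 had the highest mean in DMBA (19735, with Retnlb at 9891), and in control Zg16 (2722) exceeded Tff3 (2317). The 2 DMBA libraries differed here too, since Clca1 had 8251 in replicate 1, below Muc2 (11922), and 31220 in replicate 2. The mean of Muc2 also ranked higher on that scale, with 819 in control, behind Zg16, Tff3 and Spink4, and 10929 in DMBA, above Retnlb. In DMBA replicate 2, however, Muc2 (9935) was below Retnlb (12195).

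TAM long was then compared with the 2 groups nearest to it. Against TAM short, 5 of the 10 genes were higher in TAM long and 0 lower, against 22.0% and 20.3% of all genes, and the medians were 0.98 for the 10 genes and 0.05 for all genes tested. With scaling by library size alone the latter was 0.27, and genes called higher changed from 3554 of 6835 to 4747 of 6791. The 5 genes were Retnlb (log2 fold change 2.34, SE 0.32, edgeR adjusted p = 3.98e-04), Muc2 (2.17, SE 0.22), Spdef (1.82, SE 0.21), Clca1 (1.72, SE 0.57) and Agr2 (1.47, SE 0.23). The Clca1 call (edgeR adjusted p = 0.0354) was lost without either TAM short replicate or without TAM long replicate 2, where the log2 fold change was 1.05. The Spdef call was lost with limma on log2(FPKM + 0.1). With no filter on low counts, and in a fit of these 2 groups alone, Spink4 and Tff3 were called lower. Spink4 was also called lower with a replicate block. At an unadjusted p under 0.05, 5 of the 10 genes were higher and 2 lower (Spink4 and Tff3), where 8228 of all 16179 genes passed in either direction.

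Against DMBA, 0 of the 10 genes were higher in TAM long and 1 was lower, Spink4, against 1.24% and 1.46% of all genes. Spink4 differed by a log2 fold change of -2.55 (SE 0.56, edgeR adjusted p = 0.0469), which was -1.12 without DMBA replicate 2. The call was lost without DMBA replicate 2, without either TAM long replicate, without the DMBA+TAM libraries, in a fit of these 2 groups alone and with limma on FPKM. At an unadjusted p under 0.05, 0 of the 10 genes were higher and 4 lower (Spink4, Clca1, Fcgbp and Atoh1), where 3173 of all 16179 genes passed in either direction, and DESeq2 called 0 higher and 2 lower. Clca1 (-2.10, SE 0.58, edgeR adjusted p = 0.0867) and Fcgbp (-1.69, SE 0.50, edgeR adjusted p = 0.108) did not pass the test, and their groups did not overlap. Both values changed when 1 DMBA library was left out: without DMBA replicate 2 they were -0.68 and -0.57 and not called, and without DMBA replicate 1 they were -2.80 (edgeR adjusted p = 0.00144) and -2.31 (edgeR adjusted p = 0.00385). Atoh1 was also called without DMBA replicate 1 (-0.85, edgeR adjusted p = 0.0341). Muc2 (-0.28, SE 0.21), Spdef (-0.41, SE 0.20), Agr2 (-0.09, SE 0.23) and Retnlb (-0.08, SE 0.31) did not pass the test either. With 2 libraries a group, these SEs leave room for differences of either sign in Muc2, Spdef, Agr2 and Retnlb.

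In DMBA+TAM all 10 genes fell against control and against DMBA, a call made in every alternative. Against DMBA, 25.2% of all genes were called higher and 29.9% lower. The medians in this comparison were -9.85 for the 10 genes and -0.14 for all genes tested, and the latter was 0.04 with scaling by library size alone. Because few counts were left, the change from control is also given as a ratio of pooled counts, scaled by effective library size, with an exact 95% interval, which covers counting error only. Control exceeded DMBA+TAM 115-fold for Muc2 (86.2 to 158, from 45 counts in DMBA+TAM), 51.5-fold for Clca1 (42.4 to 63.2, from 102 counts) and 15.2-fold for Retnlb (11.2 to 21.1, from 42 counts). The ratio was 1354 for Zg16 (622 to 3690, from 6 counts) and 563 for Tff3 (306 to 1175, from 10 counts). For Spdef it was 23.4 (7.93 to 114, from 3 counts) and for Atoh1 30.0 (8.22 to 249, from 2 counts). These intervals do not cover the difference between the 2 DMBA+TAM libraries, and leaving out 1 of them moved 6 of the 10 fitted values by more than 1.5 times. Without DMBA+TAM replicate 1 or replicate 2 the log2 fold change against control was -12.09 or -9.54 for Zg16, -10.01 or -8.53 for Tff3, -9.48 or -7.43 for Spink4 and -8.90 or -7.76 for Fcgbp. Spdef had 0 and 3 counts and Atoh1 2 and 0 in these libraries, so only 1 library of each gives a fold: -3.68 for Spdef without replicate 1 and -3.78 for Atoh1 without replicate 2.

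The epithelial markers fell in the same libraries. Against control the ratios were 1747 for Epcam (803 to 4762) and 587 for Krt8 (429 to 825), both larger than that of Muc2. Against DMBA the ratios were 1042 for Epcam (479 to 2840), 582 for Krt8 (426 to 819) and 1244 for Muc2 (930 to 1706). The ratio of Muc2 was larger than that of Krt8 there. The intervals of Muc2 and Epcam overlap, so these counts do not settle their order against DMBA. All 10 general epithelial markers fell against control, with a median log2 fold change of -9.14 beside -7.47 for the goblet cell genes. Of the 10 fibroblast markers, 9 were higher and 0 lower, with a median of 3.86, against 29.0% of all genes higher and 35.3% lower. Of 10 immune markers, 5 were higher and 3 lower, the latter close to the share over all genes. Among the myeloid genes Lyz2 rose from 78.7 normalized CPM in control to 2942 and Cd68 from 2.92 to 143. The T cell genes went both ways. Cd8a fell from 19.1 to 0.925 and Cd3g from 12.5 to 0, and Cd3e had 6.75 in control and 0 in DMBA+TAM. Cd4 went the other way, with 3.05 in control and 8.89 in DMBA+TAM. The part of this exchange of markers in the fall of the goblet cell genes was not tested.

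Other genes of mucus production were read from lists of known roles. Their counts stand beside the shares of all genes called higher and lower against control, which were 24.5% and 23.3% in DMBA, 23.2% and 22.8% in TAM long and 6.52% and 7.80% in TAM short. Counts of 1 or 2 genes of a list in TAM short are too few to set apart from these shares. Of 8 other mucins and trefoil peptides tested, 6 were higher and 1 lower in DMBA, 4 and 0 in TAM long, and 1 and 0 in TAM short. Muc3a, a membrane mucin, rose from 17.4 normalized CPM in control to 154 in DMBA (log2 fold change 3.15, SE 0.24) and 111 in TAM long (2.68, SE 0.24), and Muc4, another membrane mucin, from 32.7 to 154 and 137. Muc13, a membrane mucin found along the whole gut, fell by 0.86 on the log2 scale in DMBA and rose by 0.74 in TAM short.

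Of 23 genes for protein folding and granule release tested, 15 were higher and 2 lower in DMBA, 14 and 4 in TAM long, and 2 and 0 in TAM short. Creb3l1, a transcription factor of the secretory pathway, rose from 11.03 normalized CPM in control to 120.3 in DMBA (3.44, SE 0.20) and 79.6 in TAM long (2.85, SE 0.20). The chaperone Hspa5 (BiP) and the inflammasome gene Nlrp6 fell in both, Hspa5 by 1.12 in DMBA and 0.85 in TAM long and Nlrp6 by 0.62 and 0.94 on the log2 scale. Xbp1, a factor of the unfolded protein response, rose in TAM short by a log2 fold change of 0.70 (SE 0.12).

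Of 24 genes of mucin O-glycosylation tested, 16 were higher and 4 lower in DMBA, 15 and 4 in TAM long, and 10 and 1 in TAM short. Fut2, which adds terminal fucose, rose from 2.70 normalized CPM in control to 277 in DMBA and 217 in TAM long. St6galnac6, a sialyltransferase, rose from 7.69 to 708 and 748. The sialyltransferase St3gal4 fell from 842 in control to 4.70 in TAM short, 20.5 in TAM long and 251 in DMBA, and Gcnt4, which branches the glycan, fell from 99.4 to 4.44 in DMBA and 6.04 in TAM long. The part of the segment profile in these values was not tested.

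Of 15 regulators of the secretory lineages tested, 9 were higher and 1 lower in DMBA, 8 and 2 in TAM long, and 2 and 1 in TAM short. Sox9, a factor of crypt progenitors and Paneth cells, had a log2 fold change of 2.63 (SE 0.16) and Foxa2 of 2.92 (SE 0.53) in DMBA, and Foxa1 had 2.23 (SE 0.19) in TAM long and 1.16 (SE 0.19) in TAM short. Dll1, a Notch ligand of secretory progenitors, fell from 26.95 normalized CPM in control to 6.47 in DMBA, 14.9 in TAM short and 5.24 in TAM long, opposite to Atoh1. Of 6 Paneth cell markers tested, 5 were lower and 1, Ang4, higher in DMBA, and 5 were lower and 0 higher in TAM long. Of 5 tuft cell markers tested 4 were higher in DMBA and 4 in TAM long, and of 9 enteroendocrine markers 2 were higher and 3 lower in DMBA, close to the shares over all genes.

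Of 18 genes for processing of the mucus layer and ion supply tested, 9 were higher and 6 lower in DMBA, 8 and 4 in TAM long, and 2 and 1 in TAM short. The kallikrein Klk1 rose from 63.4 normalized CPM in control to 978 in DMBA and 687 in TAM long. Clca4b, a relative of Clca1, went the other way, with 18155 and 17232 counts in control, 171 and 190 in DMBA, 17100 and 13847 in TAM short and 289 and 202 in TAM long. Mep1b, a meprin subunit, fell from 1690 normalized CPM in control to 112 in DMBA, and Mep1a, the other meprin subunit, rose from 164 to 1014 in TAM short.

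Genes related to the 10 were counted separately. Clca4a, a relative of Clca1, had 5348 and 6923 counts in control, beside 12387 and 9255 of Clca1, and 1942 and 1986 in DMBA, beside 125255 and 433215. Retnla, another resistin-like gene, reached 113 and 165 counts in DMBA from 1 and 18 in control, beside 52834 and 77630 of Retnlb in DMBA. In DMBA+TAM, however, Retnla had 64 and 97 counts and Retn 185 and 115, beside 21 and 21 of Retnlb. Tff1 had 0 counts in all 10 libraries and Tff2 had 3 and 137 in DMBA, 14 and 12 in TAM long and 0 in the other 6. In GENCODE M21, 0 exon bases of the 10 genes lay within exons of another gene.

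Across the libraries some of the 10 genes tracked Muc2 and others did not. Over the 8 libraries without DMBA+TAM, Pearson's r of log2 normalized CPM with Muc2 was 0.985 for Spdef, 0.955 for Retnlb, 0.943 for Agr2, 0.924 for Atoh1 and 0.888 for Clca1. It was 0.507 for Fcgbp, 0.250 for Zg16, 0.10 for Spink4 and -0.402 for Tff3. Over all 10 libraries r was at least 0.911 for each of them, since the DMBA+TAM libraries lie far below the rest. The libraries form groups, so these values describe the groups and carry no p.

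The 10 other genes most like Muc2 over the 10 libraries, out of 7894 genes whose mean reached 20 normalized CPM, were Gm44985, Tspan1, Foxa1, Golm1, Nipal3, Prom1, Inpp5j, Ern2, Atp2a3 and Tstd1, with r from 0.992 to 0.998. Tspan1, a tetraspanin, had 98.1 and 82.9 normalized CPM in control, 1303 and 1608 in DMBA, 260.1 and 340.4 in TAM short, 1342 and 1544 in TAM long and 1.06 and 0.441 in DMBA+TAM. Ern2, the stress sensor of goblet cell endoplasmic reticulum, had 13.8 and 11.9 in control, 64.7 and 76.0 in DMBA, 13.6 and 16.0 in TAM short, 29.8 and 44.6 in TAM long and 0 and 0 in DMBA+TAM. Over the 8 libraries without DMBA+TAM, Atp2a3, a calcium pump of the endoplasmic reticulum, was among the 10 most like Muc2 again (r = 0.994), and the other 9 ranked from 14 to 402.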

How the data were processed

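RNA-seq of 10 organoid libraries was read from 1 table of 47069 genes, after 5 lines that were broken in the file were dropped. Per the study's methods the authors aligned reads with TopHat 2.0.12 and counted them per gene with HTSeq 0.6.1, and the submitters' processing notes name GRCm38.p6. The deposited count columns were used as they stand. The deposited FPKM columns, which the authors derived from counts and gene length, were used for limma alternatives, for levels stated on the FPKM scale and for the length they imply for Muc2. Columns of the authors' own comparisons (fold changes and p-values) were not used.

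Counts were fitted with edgeR 4.0.16 (R 4.3.3; filterByExpr, TMM, quasi-likelihood test, 1 mean per group, all 10 libraries), with p-values adjusted by the Benjamini-Hochberg method over 16179 genes and a threshold of 0.05. Alternatives were DESeq2 1.42.0, limma 3.58.1 on log2(FPKM + 1) and log2(FPKM + 0.1), scaling by library size only, no filter, a fit of 2 groups alone, a replicate block, thinning of counts and leaving out each library. A fit without the DMBA+TAM libraries was added after the data were seen. On simulated counts for DMBA against control (15424 genes, 200 changed 4-fold), the fit recovered 79.4% of changed genes and 9.94% of its calls were false. That share of false calls is above the threshold of 0.05. In the data 7735 of 16179 genes were called in this comparison, so the simulated rates need not hold there.

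Intervals are exact binomial (SciPy 1.17.1) and cover counting error only. The floor was 3 counts. Gene lengths and overlaps are from GENCODE M21, which matched 98.77% of gene IDs, and promoter windows from RefSeq. The genes described and the lists were chosen with earlier results of these data known. From each list, at most the 2 highest and 2 lowest log2 fold changes that passed the test, restricted to genes whose mean reached 5 normalized CPM, were named. The 10 genes most like Muc2 were taken by Pearson's r of log2 normalized CPM, without the other members.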

Additional observations from a re-analysis of the deposited data

Results flagged for a closer look

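The change from DMBA was compared between organoids with TAM (DMBA+TAM against TAM long) and without it (DMBA against control), as an interaction term in edgeR. The difference between these changes, on the log2 scale, passed the test for all 10 genes and for 7792 of the 16179 genes tested. It was -14.75 for Retnlb, -13.42 for Muc2, -12.71 for Clca1 and -11.44 for Agr2. It was -11.16 for Zg16, -10.48 for Fcgbp and -9.04 for Spink4. For Spdef it was -9.36, for Tff3 -8.87 and for Atoh1 -8.19. The DMBA+TAM libraries behind it hold few epithelial counts, with 3 and 3 for Epcam, and the part of that in these values was not tested. Control, unlike DMBA and TAM long, had high small intestine markers and low colon markers. Treatment and segment profile therefore cannot be told apart in this term.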

How the results depend on the processing

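The 10 genes were called lower in DMBA+TAM, against control and against DMBA, in every alternative. In TAM short the 3 genes called became 8 with no filter on low counts and 8 in a fit of the 2 groups alone, and 1 to 2 when a library was left out. Atoh1 was lost there with limma on log2(FPKM + 0.1) and with thinned counts. In TAM long against control the 6 genes became 8 with no filter and in a fit of the 2 groups alone (Zg16 higher, Spink4 lower), and 4 with limma on log2(FPKM + 0.1). Against TAM short, TAM long had 8 genes past the threshold in a fit of the 2 groups alone instead of 5 (Atoh1 higher, Spink4 and Tff3 lower). With no filter it had 7 (Spink4 and Tff3 lower). Against DMBA, the 1 gene called in TAM long became 2 with DESeq2, 4 with no filter, 0 in a fit of the 2 groups alone, 0 and 0 with limma on log2(FPKM + 1) and log2(FPKM + 0.1), 0 without the DMBA+TAM libraries (added after the data were seen), and 0 to 4 when a library was left out. The cause of these changes was not tested. Some log2 fold changes changed sign. For Tff3 in DMBA against control the value was 0.17 with scaling by library size, 0.0450 and 0.0449 with limma, and from -0.97 (without DMBA replicate 2, called lower) to 0.42 when a library was left out. For Tff3 in TAM long against control it was 0.17 with library size and 0.17 and 0.17 with limma. For Tff3 in TAM long against DMBA it was 0.0060 with a replicate block, 0.12 and 0.12 with limma, and from -0.60 to 0.82 with a library left out. With a library left out, Zg16 ranged from -0.32 to 0.54 in DMBA against control and from -0.17 to 0.29 in TAM long against TAM short. Fcgbp ranged from -0.29 to 0.68 in TAM long against control and from -0.89 to 0.0750 against TAM short, Agr2 from -0.45 to 0.39 and Retnlb from -0.50 to 0.43 in TAM long against DMBA. The main fit did not pair libraries by replicate number. The correlation of the deviations of same-numbered libraries between groups was from -0.04 to 0.26, with the highest value for DMBA and TAM long. The replicate block raised the calls in TAM long against TAM short from 5 to 6 (Spink4, lower) and changed no other call. Depth limits the DMBA+TAM values most, where Spdef and Atoh1 rest on 3 and 2 counts.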
